A study of Mus musculus with 8 samples.

Results

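The genes described here are 39 imprinted genes that lie outside the Dlk1-Dio3 cluster. They were taken as listed by name, 22 of them known as paternally expressed, 16 as maternally expressed and *Gnas*, which makes transcripts of either parent. Of the 39, 38 were matched by symbol among the 21423 gene symbols of the count table, and 30 had enough reads to be tested. RNA was sequenced from 8 mouse induced pluripotent stem cell (iPSC) clones. The 4 TKO clones (35, 37, 47 and 48) came from embryonic fibroblasts (MEFs) with all of *Miwi*, *Mili* and *Miwi2* knocked out, the genes of the mouse PIWI proteins, which bind piRNAs in germ cells. The 4 Ctrl clones (33, 34, 41 and 43) came from control MEFs, triple heterozygotes from the same litters by the paper's methods. All clones shared a mixed C57BL/6 and 129 background, an Oct4-GFP reporter, retroviral OCT4, SOX2, KLF4 and c-MYC, culture with LIF and fewer than 10 passages. Each library is 1 clone, colonies had been picked onto inactivated MEF feeder cells, and the labels do not say which embryo a clone came from. TKO 47, TKO 48, Ctrl 41 and Ctrl 43 are named the forties clones and the other 4 the thirties clones, by their numbers, whose meaning the labels leave unsaid. This grouping is referred to as the clone series.

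An imprinted gene is read mainly from the chromosome of 1 parent. DNA methylation set in the egg or the sperm marks imprinting control regions, and after fertilisation ZFP57 and TRIM28 bind the methylated copy and keep its mark through the wave of demethylation in the early embryo. Neighbouring imprinted genes often share a control region. Many paternally expressed genes promote fetal growth and many maternally expressed ones restrain it. Reprogramming to iPSCs and culture of pluripotent cells are known to disturb some imprints. The counts do not separate the parental alleles, so a level here is the sum of both. Paternally and maternally expressed are the labels under which the genes were listed. Whether each label holds in these iPSC clones was not measured.

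The members that could be tested differed with the number of records in the annotation. All 23 members with 1 RefSeq record in the table were tested, against 7 of the 15 with 2 or more records. Over all genes the gap was smaller, with 70.2% of genes with 1 record and 63.5% of those with several having a tested record. Why the members differed more was not tested. Over all genes with several records, 28.4% of the records were at 0 in every library, against 13.3% of the records of genes with 1 record. *Peg10*, a gene derived from a retrotransposon, had 0 reads in both of its records and *Sgce*, its neighbour encoding a sarcoglycan, had 1 read over 5 records. *Uhrf1*, which dividing cells need to copy DNA methylation, was also listed at 0. The rule for reads that match several records is not stated in the sources used here, so such low counts are not read as low expression. *Airn*, the noncoding RNA that silences *Igf2r* in *cis*, had 96 reads over 4 records and 8 libraries. *Rasgrf1*, *Cdkn1c*, *Slc22a18*, *Tssc4* and *Calcr* had 38, 24, 17, 29 and 1 reads over all their records and were not tested. *H19*, the maternally expressed noncoding RNA beside *Igf2*, had no matched record and has no value here.

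The promoters of *Mest*, *Copg2*, *Nnat* and *Usp29* are shown as examples from the members that differed between clones. Each window holds 250 bases before and 50 after the start (RefSeq, GRCm38.p6), written 5′ to 3′ on the gene's strand. Capitals mark TGCCGC or its reverse complement GCGGCA, the motif that ZFP57 binds when methylated, searched on both strands as the only motif.
Mest, chr6:30737800-30738099, plus strand: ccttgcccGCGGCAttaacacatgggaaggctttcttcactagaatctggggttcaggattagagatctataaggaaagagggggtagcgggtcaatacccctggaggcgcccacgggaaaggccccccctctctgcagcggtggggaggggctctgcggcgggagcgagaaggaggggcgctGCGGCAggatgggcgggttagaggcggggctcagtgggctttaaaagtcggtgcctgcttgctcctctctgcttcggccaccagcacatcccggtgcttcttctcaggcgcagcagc
Copg2, chr6:30896745-30897044, minus strand: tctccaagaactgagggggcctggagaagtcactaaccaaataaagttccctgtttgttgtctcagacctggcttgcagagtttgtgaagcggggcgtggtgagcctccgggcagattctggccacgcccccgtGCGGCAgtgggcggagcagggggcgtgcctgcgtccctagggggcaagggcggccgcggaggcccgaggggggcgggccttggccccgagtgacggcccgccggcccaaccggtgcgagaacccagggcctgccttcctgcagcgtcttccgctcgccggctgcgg
Nnat, chr2:157559828-157560127, plus strand: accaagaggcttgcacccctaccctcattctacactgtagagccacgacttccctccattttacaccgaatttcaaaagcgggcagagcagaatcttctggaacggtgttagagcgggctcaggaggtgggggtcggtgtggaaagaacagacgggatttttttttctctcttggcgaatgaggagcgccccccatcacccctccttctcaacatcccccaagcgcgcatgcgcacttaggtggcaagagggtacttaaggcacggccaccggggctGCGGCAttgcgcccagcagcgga
Usp29, chr7:6730333-6730632, plus strand: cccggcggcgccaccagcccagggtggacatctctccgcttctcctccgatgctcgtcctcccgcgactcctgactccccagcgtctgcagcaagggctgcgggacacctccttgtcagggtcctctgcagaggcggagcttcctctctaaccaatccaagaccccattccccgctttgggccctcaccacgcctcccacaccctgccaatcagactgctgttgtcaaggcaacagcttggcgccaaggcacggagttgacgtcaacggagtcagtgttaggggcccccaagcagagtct
The *Mest* window, at the start inside its imprinted CpG island, held 2 matches and 17 CpG dinucleotides. *Copg2* and *Nnat* had 1 match each. *Usp29* had none in its window, which shares 263 bases with that of *Peg3* on the other strand, also without a match. Of the other members that differed between clones, *Igf2* and *Grb10* had a match in 1 window each. *Slc38a4*, *Ndn* and *H13* had none, and *Impact* had no window. Over the 34 members with a promoter in the table, 12 genes (35.3%) had a match in at least 1 window, 7 of 19 paternally and 5 of 14 maternally expressed, against 13.1% of all 27025 genes. Per window the share was 24.5% of 53 against 11.6% of all 32851. The motif holds a CpG, and the member windows had a median of 16 CpG against 7 in all windows. Among the members, paternally expressed genes had a median of 10.5 CpG and a match in 26.7% of windows, and maternally expressed genes 21 CpG and 26.3%. These windows say nothing about methylation or binding in these clones.

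Total counts were 45005422 to 52457455 in the TKO clones of the thirties and 24593995 to 28830217 in those of the forties, against 8983203 to 17216692 and 23992893 to 24688324 in the Ctrl clones of the same series. Libraries were scaled by size factors. *Miwi* had 2.41 to 4.53 normalised counts in TKO clones and 8.13 to 28.8 in Ctrl clones. *Mili* (3845 to 10084 in TKO, 758 to 1028 in Ctrl) and *Miwi2* (936 to 2862 in TKO, 487 to 769 in Ctrl) were higher in the TKO clones. The paper also found *Mili* and *Miwi2* raised in TKO iPSCs and describes these transcripts as truncated and without function. The counts here cover the whole record and do not show the deleted parts, so a loss is seen for *Miwi* only. The summed level of 10 pluripotent cell markers was 153277 to 171996 in TKO and 123700 to 176330 in Ctrl clones, with *Esrrb* near 0 in every clone and *Dppa5a* the largest part of the sum. Why *Esrrb* was near 0 was not tested, and its count is not read as a lack of expression. *Pou5f1*, the gene of OCT4, was the 1 of 9 tested markers called, at 15866 to 19185 in TKO and 24310 to 28971 in Ctrl clones (log2 fold change -0.61). This is the fit of genotype alone, where 11.1% of these markers and 0.24% of all records were called. Reads of the retroviral OCT4 and SOX2 were not separated from those of the cells' own genes. All 15 fibroblast markers were detected. Their sum was 21857 to 23951 in TKO and 40407 to 65479 in Ctrl clones of the thirties, and 30952 to 39955 in TKO and 25559 to 26377 in Ctrl clones of the forties. The summed Y-linked genes had 313 to 543 counts in the forties clones and 10.8 to 17.3 in the thirties clones, with *Xist* between 375 and 892 in all clones. Clone series and Y-linked transcripts therefore cannot be told apart. In bulk RNA, fewer cells of a type and less RNA per cell cannot be told apart either.

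**Figure D1:**
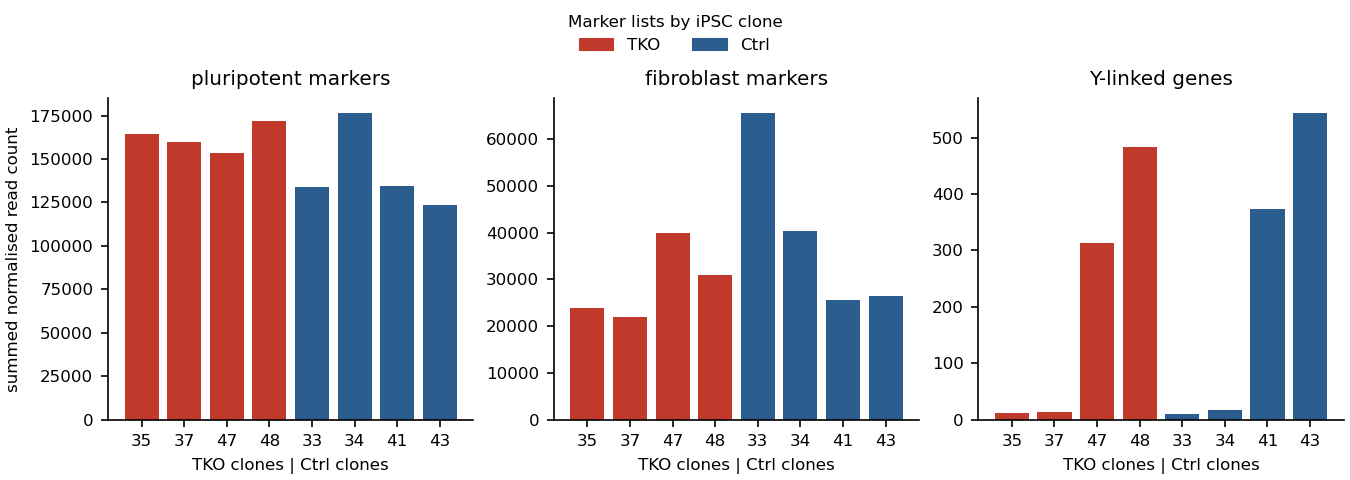
Summed normalised read count (y axis, starting at 0) of pluripotent markers, fibroblast markers and Y-linked genes in the 4 TKO clones (red, left) and 4 Ctrl clones (blue, right), 1 bar per clone. The fibroblast sum was lowest in TKO 35 and TKO 37, and Y-linked counts were under 20 in the 4 thirties clones.

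The members covered a wide range of levels, best compared per kilobase of transcript. *Cd81*, a tetraspanin of the cell surface, was the highest with 4591 ± 828 normalised counts per kb (SD, n = 8 clones). *Slc38a4*, an amino acid transporter, had 2566 ± 747 and *Commd1*, a copper homeostasis factor, 1470 ± 181 per kb. The zinc finger gene *Peg3* followed with 1255 ± 109.5 per kb. *Impact*, *Mest*, *Copg2*, *Mcts2* and *Igf2r* lay between 850 and 984 per kb, closer to each other than the SD over clones of *Impact*, 194 per kb. The lowest tested members were *Ube3a* (6.05 per kb), *Gnas* (4.48 per kb) and *Snrpn* (2.21 per kb), all of them genes with several records.

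**Figure D2:**
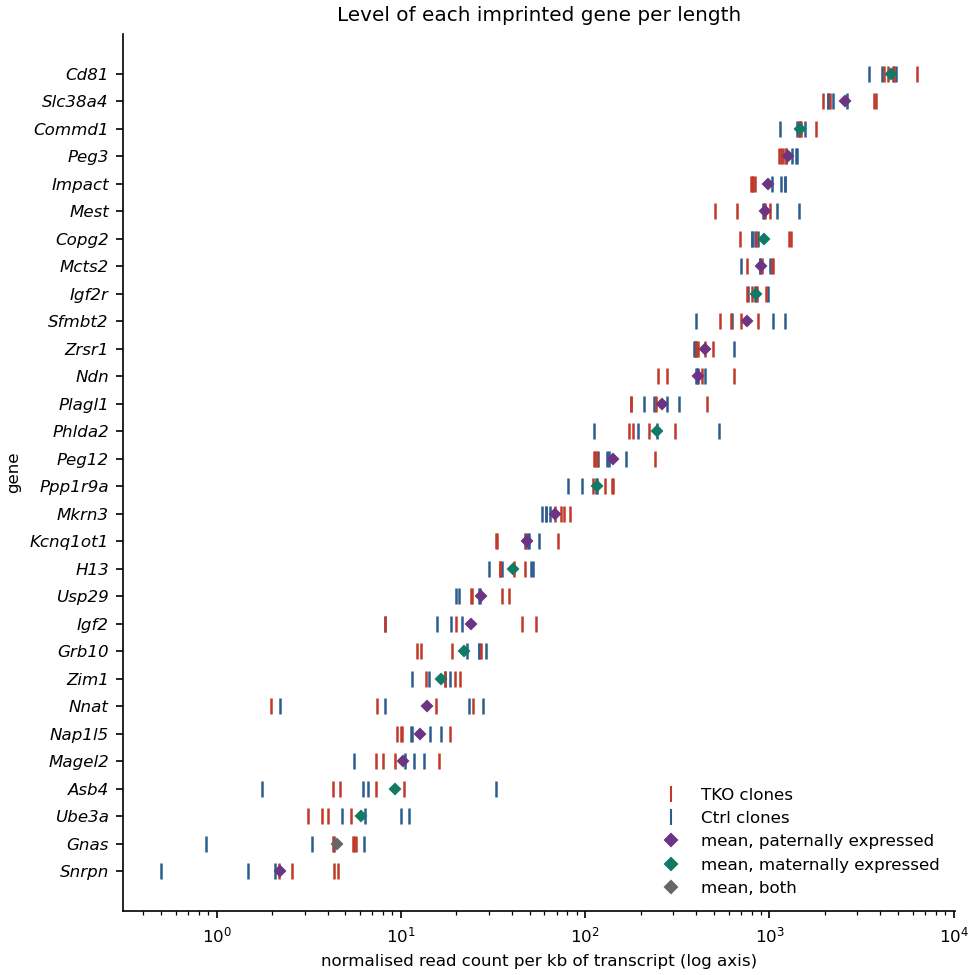
Normalised read count per kb of transcript (x axis, log scale) of the 30 tested imprinted genes, with a tick for each TKO clone (red) and Ctrl clone (blue) and a diamond for the mean of 8 clones. Levels ran from 2.21 for *Snrpn*, whose Ctrl 33 value of 0 has no place on a log axis, to 4591 for *Cd81*.

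In TKO against Ctrl clones without regard to series, none of the 30 tested members passed an adjusted p of 0.05 in edgeR's quasi-likelihood test, while 0.24% of all 16235 records did. At an unadjusted p under 0.05 there were 5 members (16.7%, against 14.8% of all records). DESeq2 called 1 member, *Impact*, as did edgeR without Ctrl 33. The median log2 fold change was -0.02 over the members and -0.01 over all records. With the clone series added as a model term, 2 members (6.67%) were called, both paternally expressed and both lower in TKO iPSCs, beside 5.7% of all records called and 3.1% called lower. Neither reached 2.5-fold, which 0.893% of all records did. The count was 0 without TKO 37, 4 without TKO 48, and 1 without Ctrl 33, Ctrl 41, TKO 35 or TKO 47.

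*Impact*, whose protein restrains the GCN2 kinase and so bears on translation under amino acid shortage, was the member with the cleanest difference. Its normalised counts were 2857, 2749.5, 2715 and 2811 in TKO clones 35, 37, 47 and 48, against 3562, 3986, 4163 and 4185 in Ctrl clones 33, 34, 41 and 43. The genotypes did not overlap, and the 4 TKO clones lay within a narrow band. The mean was 2783 ± 63.4 in TKO and 3974 ± 289 in Ctrl clones (SD, n = 4 each), and the log2 fold change with series as a term was -0.51 ± 0.08 (SE, edgeR adjusted p = 0.010). The contrasts within each series came from 1 fit with the spread pooled over all 8 clones, so they are not separate tests. Their log2 fold change was -0.43 ± 0.09 in the thirties (adjusted p = 0.022) and -0.60 ± 0.09 in the forties (adjusted p = 0.025). The interaction of genotype and series was 0.17 ± 0.13 (adjusted p = 0.55). Without series in the model the adjusted p was 0.054. Without TKO 37 the adjusted p with series as a term was 0.052. The call in the thirties was lost without Ctrl 41, Ctrl 43, TKO 35 or TKO 37 (adjusted p = 0.0522, 0.0529, 0.161 and 0.176), and that in the forties without Ctrl 41, Ctrl 43 or any 1 TKO clone (adjusted p = 0.0658 to 0.22), with fold changes of the same direction throughout. With the fibroblast level as a further term the log2 fold change was -0.56 (adjusted p = 0.0085). Over all records 8.33% had no overlap between the genotypes (4.1% higher and 4.23% lower in TKO), and among the members it was 3 of 30 (10%), 2 higher and 1 lower.

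*Mest*, which encodes a hydrolase-fold protein of mesodermal tissues and lies on chromosome 6 from 30673547 to 30698457 (mm9), was the other gene called with series as a term. It had 1291, 1699.8, 2400.1 and 2570.1 normalised counts in TKO clones 35, 37, 47 and 48, against 2367, 2349, 3663 and 2787 in Ctrl clones 33, 34, 41 and 43. The genotypes overlapped over all 8 clones, but within each series both TKO clones were below both Ctrl clones. The log2 fold change was -0.52 ± 0.12 (SE, adjusted p = 0.041). This call was lost without Ctrl 33, Ctrl 34, Ctrl 41, TKO 35, TKO 37 or TKO 47 (adjusted p = 0.0662, 0.0684, 0.105, 0.132, 0.102 and 0.104), and with the fibroblast level as a further term (log2 fold change -0.48, adjusted p = 0.067).

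The other members without overlap were both higher in TKO iPSCs and not called. *Mkrn3*, a ubiquitin ligase gene known for restraining puberty, had 190.1, 176, 196 and 211 normalised counts in TKO and 149, 166, 158 and 157 in Ctrl clones. Its log2 fold change was 0.30 ± 0.13 with series as a term (SE, adjusted p = 0.20). The exact two-sided permutation test of single genes gave p = 0.0286, the smallest that 4 clones against 4 can give. That value follows from the lack of overlap for which *Mkrn3* is named here, and adds nothing to it. *Snrpn*, of the spliceosome, had 4.53, 5.31, 9.02 and 9.40 in TKO and 0, 4.32, 1.04 and 3.06 in Ctrl clones, which rests on at most 11 reads per library.

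**Figure D3:**
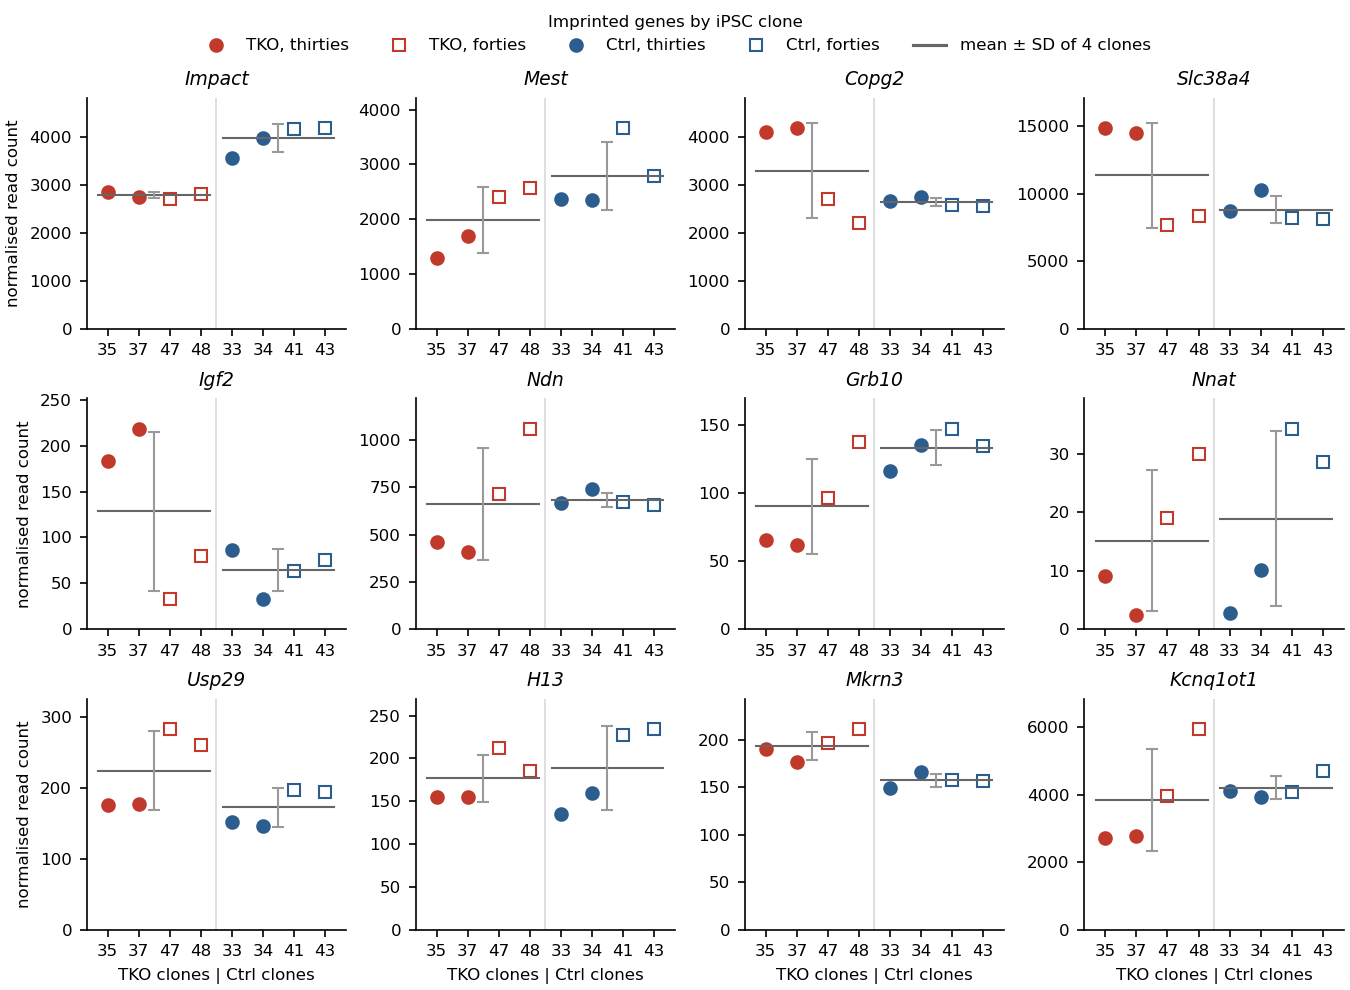
Normalised read count (y axes, starting at 0) of 12 imprinted genes in the 4 TKO clones (red, left) and 4 Ctrl clones (blue, right), filled circles for the thirties and open squares for the forties, with the mean ± SD of each genotype. *Impact* separated the genotypes in both series, while *Copg2*, *Slc38a4* and *Igf2* were high in TKO 35 and TKO 37 only, among these 8 clones.

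Within the thirties, TKO 35 and TKO 37 differed from Ctrl 33 and Ctrl 34 for 7 of the 30 members, 3 higher and 4 lower. That is 23.3% of the members, where 11.9% of all records were called (4.83% higher and 7.05% lower). Within the forties 1 member (3.33%) was called, *Impact*, lower, against 1.98% of all records called and 1.17% called lower. That count was 2 without Ctrl 33 or Ctrl 34 and 0 without any 1 of the other 6 clones. The difference between the series was itself not called for any member (edgeR interaction, 0 of 30 against 1.3% of all records, with 7 members, 23.3%, at an unadjusted p under 0.05 against 18.7% of all records, and 6 members called by DESeq2). It was called for 7 members without Ctrl 33, 2 without Ctrl 34 and 5 without TKO 47. The effects below are therefore not shown to be confined to the thirties. With 2 clones a side, all 7 calls were lost without TKO 35 and also without TKO 37, and 4, 3 and 3 members were called without Ctrl 34, Ctrl 41 and Ctrl 43. In the thirties 10 of the 15 fibroblast markers were also lower in TKO and none higher. The summed 8 neural markers had 2966 to 3237 counts in TKO and 5147 to 6868 in Ctrl clones of the thirties (4 of 6 tested called, 3 lower). The summed 8 trophoblast markers had 1446 to 1837 in TKO and 675 to 1016 in Ctrl clones (1 of 6 called, higher), with *Tpbpa* at 0. The part of such cells in the 7 differences was not tested.

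*Igf2*, the fetal growth factor, had 183 and 219 normalised counts in TKO 35 and TKO 37, against 86.7 and 33.1 in Ctrl 33 and Ctrl 34. In the forties it had 33.1 and 80.4 in TKO and 63.3 and 75.4 in Ctrl clones, which overlapped. The log2 fold change was 1.85 ± 0.47 in the thirties (SE, adjusted p = 0.035) and -0.28 ± 0.45 in the forties (adjusted p = 0.78). Without Ctrl 33 the thirties value was 2.60 (adjusted p = 0.0098) and without Ctrl 34 it was 1.21 (adjusted p = 0.134), and the call was also lost without Ctrl 41, Ctrl 43, TKO 35 or TKO 37 (adjusted p = 0.0713, 0.0716, 0.161 and 0.189). *Igf2* (chromosome 7, 149836673 to 149852721, mm9) has another tested record, NM_001122737, with 30.6 and 32.3 counts in TKO and 27.1 and 14.4 in Ctrl clones of the thirties. That record changed in the same direction but was not called (log2 fold change 0.70, adjusted p = 0.30), so the call was made on NM_010514.

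*Slc38a4* (chromosome 15, 96825254 to 96886387, mm9) had 14857 and 14499 normalised counts in TKO 35 and TKO 37, against 8714 and 10304 in Ctrl 33 and Ctrl 34. In the forties the genotypes overlapped, at 7675 and 8371 in TKO and 8165 and 8126 in Ctrl clones. The log2 fold change was 0.63 ± 0.10 in the thirties (SE, adjusted p = 0.0091) and -0.02 ± 0.10 in the forties (adjusted p = 0.94), with an interaction of 0.65 ± 0.14 (adjusted p = 0.065). *Copg2*, the coatomer gene that lies tail to tail with *Mest*, was also highest in TKO 35 and TKO 37. It had 4108 and 4192 counts in TKO 35 and TKO 37 against 2679 and 2759 in Ctrl 33 and Ctrl 34, and 2705 and 2208 in TKO against 2582 and 2565 in Ctrl clones of the forties. Its log2 fold change was 0.61 ± 0.11 in the thirties (SE, adjusted p = 0.012) and -0.07 ± 0.11 in the forties (adjusted p = 0.78). Without TKO 35 or TKO 37 the thirties adjusted p was 0.115 and 0.0889 for *Slc38a4* and 0.121 and 0.108 for *Copg2*, and no other clone left out ended either call.

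Of the 4 lower members, *Mest* and *Impact* are given above, with log2 fold changes of -0.66 ± 0.16 and -0.43 ± 0.09 in the thirties (adjusted p = 0.032 and 0.022). *Ndn*, a MAGE-family gene of neurons on chromosome 7 (69493163 to 69494814, mm9), had 462 and 408 normalised counts in TKO 35 and TKO 37, against 669 and 739 in Ctrl 33 and Ctrl 34. In the forties it had 715 and 1060.2 in TKO and 673 and 656 in Ctrl clones, so there both TKO clones were above both Ctrl clones. The log2 fold change was -0.70 ± 0.19 in the thirties (SE, adjusted p = 0.044) and 0.42 ± 0.18 in the forties (adjusted p = 0.25), with an interaction of -1.12 ± 0.26 (adjusted p = 0.074). The thirties call of *Ndn* was lost without Ctrl 34, Ctrl 41, Ctrl 43, TKO 35 or TKO 37 (adjusted p = 0.11, 0.0844, 0.0851, 0.182 and 0.245), and that of *Mest* without Ctrl 34, TKO 35 or TKO 37 (adjusted p = 0.0584, 0.239 and 0.0888).

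*Grb10* (chromosome 11, 11830511 to 11938686, mm9) encodes an adaptor that dampens insulin and IGF signalling and is maternally expressed in most tissues. It had 65.6 and 62.3 normalised counts in TKO 35 and TKO 37, against 116 and 135 in Ctrl 33 and Ctrl 34. The TKO clones of the forties had 96.2 and 138, and the Ctrl clones 147 and 134. The log2 fold change was -0.99 ± 0.24 in the thirties (SE, adjusted p = 0.031), lost after thinning all libraries to the smallest total (adjusted p = 0.082) and without Ctrl 34, Ctrl 41, Ctrl 43, TKO 35 or TKO 37 (adjusted p = 0.104, 0.0633, 0.0635, 0.187 and 0.195). In the forties it was -0.27 ± 0.23 (adjusted p = 0.56).

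The paternally and maternally expressed members did not share 1 direction in the thirties. Of 18 paternally expressed members 2 were higher and 3 lower, and of 11 maternally expressed ones 1 was higher and 1 lower. The median log2 fold change was -0.23 over the paternally expressed, 0.11 over the maternally expressed and -0.01 over all records. In the forties the medians were 0.14, -0.14 and 0.01. TKO 35 and TKO 37 were both below all other clones for 5 members (*Mest*, *Kcnq1ot1*, *Plagl1*, *Ndn* and *Grb10*) and both above them for 5 (*Igf2*, *Slc38a4*, *Zim1*, *Ppp1r9a* and *Copg2*). That is 16.7% of the members in each direction, near the 17.9% and 18% of all records. The pair thus stood apart over all records alike, and whether its clones are independent replicates was not tested.

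**Figure D4:**
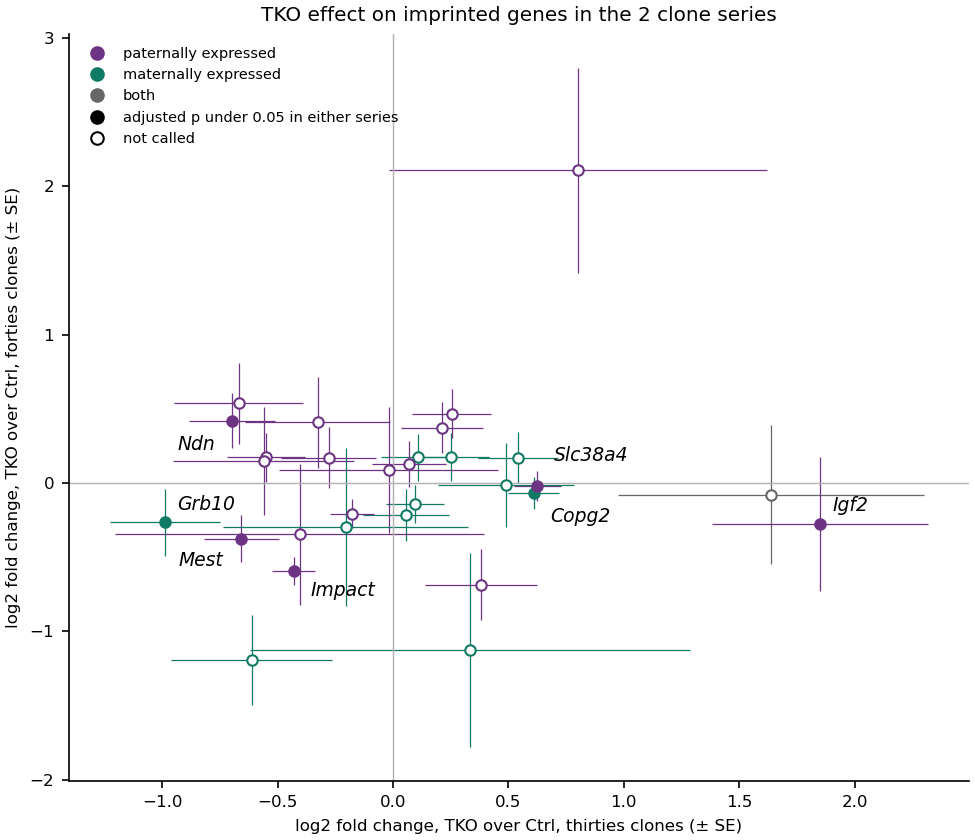
Log2 fold change of TKO over Ctrl in the thirties clones (x axis) against that in the forties clones (y axis) for the 30 tested imprinted genes, with SE bars, purple for paternally and green for maternally expressed genes and filled where called in either series. *Impact* is low on both axes, while *Igf2* is at 1.85 on the x axis and -0.28 on the y axis.

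Forties against thirties clones, with genotype as a term, gave 5 called members (16.7%), 4 higher and 1 lower, beside 19.4% of all records (9.84% higher and 9.56% lower). The groups of 4 clones did not overlap for the same 5 genes, against 16.1% of all records (8.35% higher and 7.72% lower). The count was 10 without Ctrl 34, 3 without TKO 47, and 2 without TKO 35 or without TKO 37. The summed 8 mesoderm markers had 230 to 387 counts in the forties and 95.0 to 138 in the thirties clones (4 of 6 tested called, all higher). The 8 neural markers had 7167 to 9321 in the forties and 2966 to 6868 in the thirties clones (2 of 6 called, both higher), and the 8 trophoblast markers 370 to 603 and 675 to 1837 (2 of 6 called, both lower). The 8 primitive endoderm markers had 330.6 to 695 in the forties and 251 to 330.5 in the thirties clones (4 of 7 called, all higher). The part of such cells in these differences was not tested. *Nnat*, a small membrane protein of developing brain on chromosome 2 (157385814 to 157388258, mm9), had 19.03, 29.9, 34.3 and 28.5 normalised counts in forties clones 47, 48, 41 and 43, against 9.05, 2.41, 2.71 and 10.1 in thirties clones 35, 37, 33 and 34. The log2 fold change was 2.11 ± 0.42 (SE, adjusted p = 0.010), on 1 to 35 reads per library. *Mest* was higher in the forties within each genotype, with a log2 fold change of 0.59 ± 0.12 (SE, adjusted p = 0.010). *Mest* was called in all 16 and *Nnat* in all 15 alternatives that gave a value, leaving out any clone included.

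*Usp29*, a ubiquitin protease gene that starts beside *Peg3*, had 282, 259.9, 197 and 195 normalised counts in forties clones 47, 48, 41 and 43, against 176, 178, 152 and 145 in thirties clones 35, 37, 33 and 34. Its log2 fold change was 0.52 ± 0.13 (SE, adjusted p = 0.023). *H13*, the signal peptide peptidase gene that hosts *Mcts2* in an intron, had 212, 186, 227 and 234 in the forties and 154, 155, 135 and 159.8 in the thirties (log2 fold change 0.49 ± 0.14, SE, adjusted p = 0.037). *Slc38a4* was the member that was lower in the forties (log2 fold change -0.55 ± 0.13, SE, adjusted p = 0.018). The call of *Usp29* was lost without Ctrl 41, Ctrl 43, TKO 35, TKO 37 or TKO 47 (adjusted p = 0.0518, 0.051, 0.0969, 0.0899 and 0.0693). That of *Slc38a4* was lost without TKO 35, TKO 37 or TKO 47 (adjusted p = 0.062, 0.0587 and 0.0586). That of *H13* was lost without Ctrl 33, Ctrl 41, Ctrl 43, TKO 35, TKO 37 or TKO 47 (adjusted p = 0.0587, 0.0882, 0.0968, 0.0978, 0.0916 and 0.0887), with no filter (0.0541) and after thinning to the smallest total (0.0754).

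*H13* is known to end its transcripts at different sites on the parental chromosomes, before or after *Mcts2*. Its 4 records were fitted one by one, and a difference between them was not tested. NM_001159553, the record used, had a log2 fold change of 0.06 in the thirties for TKO against Ctrl (adjusted p = 0.87). There NM_010376 had -0.96 (adjusted p = 0.042), with 27 to 76 reads per library. NM_001159552 had -0.06 (adjusted p = 0.92), and NM_001159551 had -1.07 (adjusted p = 0.28) on 5 to 18 reads per library. Between the series NM_010376 had 0.09 (adjusted p = 0.84), NM_001159552 0.63 (adjusted p = 0.077) and NM_001159551 0.03 (adjusted p = 0.97). *Mcts2* (chromosome 2, 152512884 to 152513676, mm9), a retrocopy of *Mcts1*, had 561 to 833 normalised counts and was called in no comparison with all 8 clones, but between the series without Ctrl 34. None of the 744 stretches of 50 bases in its annotated transcript occurred in another gene's transcripts.

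*Mest* and *Copg2* share 904 exon bases on opposite strands in the mm9 annotation, 23.0% of the *Mest* exons and 20.2% of those of *Copg2*. Use of strand in counting is not stated, so reads in this stretch cannot be assigned. In the thirties the genes differed in opposite directions, *Mest* by -0.66 and *Copg2* by 0.61 on the log2 scale, and between forties and thirties by 0.59 and -0.42 (adjusted p = 0.010 and 0.055). In the Peg3 locus, *Peg3* was steady with 7426 to 9324 normalised counts over all clones, *Usp29* is described above, and *Zim1* had 40.3 to 73.6.

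In the Snrpn locus on chromosome 7, *Ndn*, *Magel2*, *Mkrn3* and *Peg12* are paternally expressed and *Ube3a*, a ubiquitin ligase gene, is maternal in neurons. *Magel2* had 25.9 to 75.2 normalised counts and *Peg12* 295 to 633, both highest in TKO 48 and called nowhere. *Ube3a* had 15.9 to 27.4 in TKO and 24.5 to 56.1 in Ctrl clones, which overlapped (log2 fold change -0.94 ± 0.25, SE, adjusted p = 0.055 with series as a term). By DESeq2, by limma-voom, with at least 10 reads in every library and without Ctrl 34 *Ube3a* was called lower (adjusted p = 0.027, 0.047, 0.044 and 0.044), and in the forties without Ctrl 33 or Ctrl 34 (0.038 for each). Of the Kcnq1ot1 locus, the noncoding *Kcnq1ot1* itself had 2726 and 2773 in TKO 35 and TKO 37 and 3934 to 5954 in the other clones, and edgeR did not call it (adjusted p = 0.063 in the thirties and 0.066 between the series). With DESeq2 it was called in both (adjusted p = 0.025 and 0.038), as with no filter, and in the thirties also without TKO 47 or TKO 48 (adjusted p = 0.013 for each). *Phlda2*, which restrains placental growth, had 226, 165, 128 and 134 in TKO clones 35, 37, 47 and 48 and 390.1, 82.1, 142 and 180.3 in Ctrl clones 33, 34, 41 and 43. The thirties Ctrl clones held both its highest and its lowest value. *Cd81* had 5295 to 9687 and was called in none of these comparisons with all 8 clones.

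*Igf2r*, the receptor that clears IGF2, is listed here as maternally expressed. Which alleles were read in these clones was not measured. *Igf2r* was steady with 8520, 6800.2, 7612 and 7207 normalised counts in TKO clones 35, 37, 47 and 48, against 7476, 6869.9, 7576 and 8778 in Ctrl clones 33, 34, 41 and 43. Its log2 fold change with series as a term was -0.02 ± 0.10 (SE, adjusted p = 0.91). Its antisense partner *Airn* had 5.66, 12.5, 2.00 and 2.56 counts in TKO clones 35, 37, 47 and 48, and 0, 0, 1.04 and 0 in Ctrl clones 33, 34, 41 and 43, on 0 to 26 reads of its highest record. *Airn* did not pass the filter on low counts. With no such filter edgeR called it in the thirties (adjusted p = 0.032), on 10 and 26 reads in TKO 35 and TKO 37 and 0 in each of the shallower Ctrl 33 and Ctrl 34 libraries, and in no other comparison.

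Several members varied more over the 8 clones than records of like level, with differences of genotype and series not taken out. The SD of log2(count + 1) over 8 clones was 1.34 for *Nnat*, 1.14 for *Asb4*, 0.98 for *Igf2*, 0.52 for *Sfmbt2* and 0.45 for *Mest*, where the median of records within 0.5 log2 units of their level was 0.56, 0.51, 0.41, 0.18 and 0.20. In all, 9 of the 30 members lay in the top 10 percent of records of like level and 9 lay under the median. *Mkrn3* (0.18 against 0.37) and *Peg3* (0.12 against 0.18) were among the steady ones. *Asb4* had 108 normalised counts in Ctrl 41 and 5.76 to 34.2 in the other 7 clones.

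TKO 48 was the highest clone for 9 of the 18 paternally expressed members and for 1 of the 11 maternally expressed ones, a count chosen after its values were seen, and for 12.8% of all records. The 9 include *Plagl1*, a zinc finger gene, with 2432 normalised counts in TKO 48 and 933 to 1712 in the other clones, *Kcnq1ot1* with 5954 against 2726 to 4713, and *Peg12* with 633 against 295 to 439. They also include *Ndn*, *Magel2*, *Mkrn3*, *Nap1l5*, *Mcts2* and *Snrpn*. *Ndn*, *Magel2*, *Mkrn3*, *Peg12* and *Snrpn* lie in 1 locus, so the 9 are not separate cases. TKO 48 was only just above TKO 47 for *Mcts2* (833 against 823) and *Snrpn* (9.40 against 9.02, on 11 and 9 reads). TKO 47, of the same genotype and series, was the highest clone for 1 of the 18, and for 7.72% of all records.

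**Figure D5:**
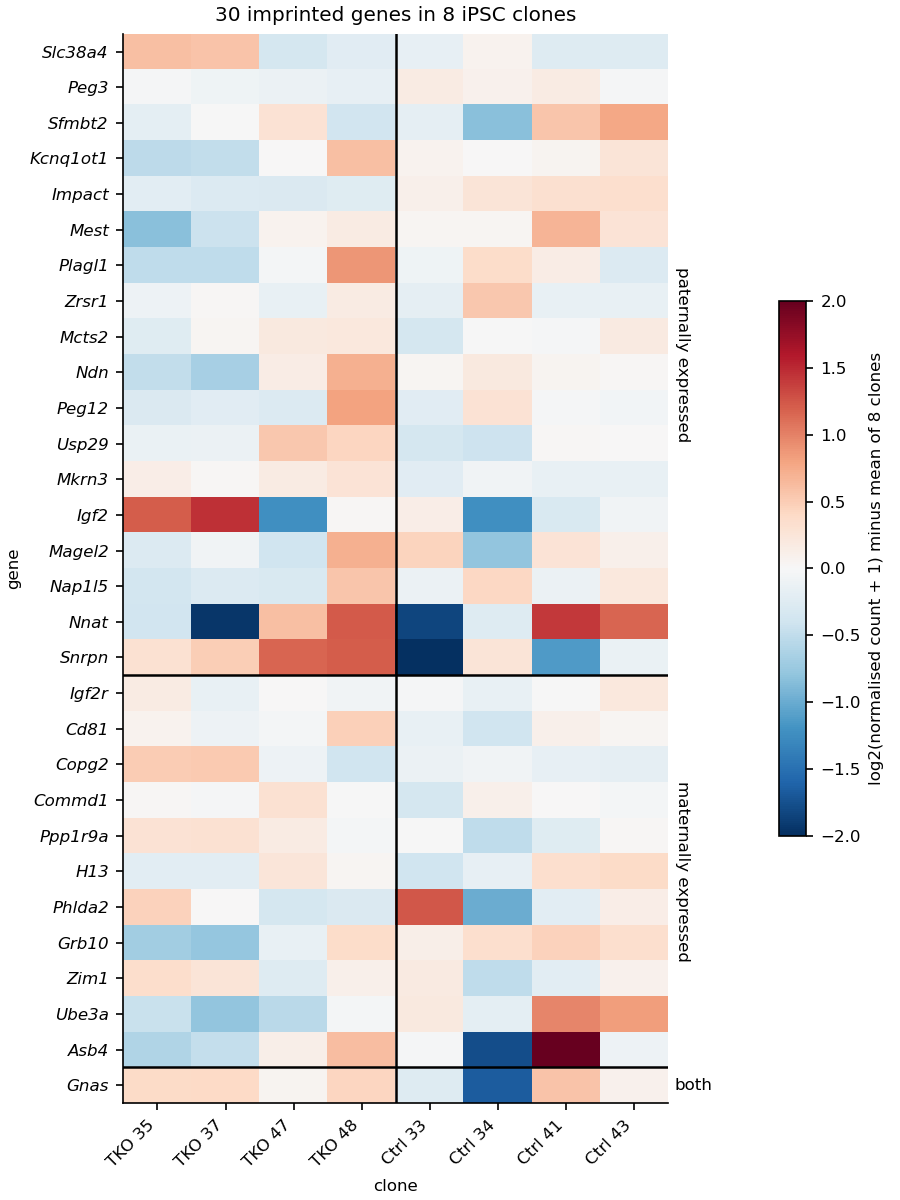
Log2(normalised count + 1) minus the mean of the 8 clones (colour, red above and blue below) for the 30 tested imprinted genes (rows, paternally expressed above, maternally expressed below, then *Gnas*) in TKO clones (left) and Ctrl clones (right). The TKO 48 column is the reddest in 9 of the 18 paternally expressed rows, and *Impact* is blue in the 4 TKO clones and red in the 4 Ctrl clones.

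A list of genes of imprint maintenance, DNA methylation and demethylation, and chromatin was measured in the same clones, 23 of 26 being tested. With series as a term 1 was lower in TKO iPSCs (4.35%, beside 5.7% of all records), the chromatin remodeller *Hells*, with a log2 fold change of -0.47 ± 0.08 (SE, adjusted p = 0.017). It had 6314, 6658, 8229 and 7412 normalised counts in TKO clones 35, 37, 47 and 48, against 7972, 9293, 10883 and 11599 in Ctrl clones 33, 34, 41 and 43, and each series showed the difference within itself. In the forties *Ctcf* and *Smchd1* were lower as well (log2 fold change -0.47 for both, adjusted p = 0.039 and 0.049), which makes 13.04% of the list against 1.98% of all records. *Zfp57* had 2010 to 2777 counts in TKO and 1514 to 2310 in Ctrl clones and was not called (adjusted p = 0.26 with series as a term). *Dnmt1*, the maintenance methyltransferase, was not called either (adjusted p = 0.82). Between forties and thirties *Ctcf* and *Hells* were higher and *Dnmt3l* lower, 13.04% of the list against 19.4% of all records.

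Of 36 other imprinted genes 26 were tested, and in the thirties 6 were lower and 1 higher in TKO iPSCs (26.9%, beside 11.9% of all records), with a median log2 fold change of -0.68. *Tfpi2*, a protease inhibitor gene, had 28.3 and 33.8 normalised counts in TKO 35 and TKO 37 against 159.8 and 131 in Ctrl 33 and Ctrl 34 (log2 fold change -2.21 ± 0.25, SE, adjusted p = 0.0024). *Htr2a*, a serotonin receptor gene, had 15.3 and 11.6 against 102.9 and 61.9 in the same clones (log2 fold change -2.57 ± 0.39, SE, adjusted p = 0.0068). For *Tfpi2* the forties log2 fold change was -0.39 ± 0.23 (SE, adjusted p = 0.38). Its interaction of genotype and series was -1.81 ± 0.34 (adjusted p = 0.045), the 1 called in this list (3.85%, against 1.3% of all records). *Zdbf2*, a paternally expressed zinc finger gene, was the one of this list called with series as a term, at -0.72 ± 0.15 (SE, adjusted p = 0.028). *Osbpl5* was lower in the thirties as well (-1.22 ± 0.28, SE, adjusted p = 0.025). Fibroblast markers were lower in these same TKO clones, and their part in these differences was not tested. In the forties the 26 genes had a median of 0.03, and *Ago2* was called, lower by 0.65 on the log2 scale. Of the 6 tested genes of the Dlk1-Dio3 cluster, *Meg3*, *Rian* and *Dio3* were lower in TKO clones of the thirties (50%, against 11.9% of all records), and *Meg3*, *Rian*, *Mirg* and *Begain* were higher in the forties than in the thirties (66.7%, against 19.4% of all records).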

How the data were processed

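Total RNA of 8 iPSC clones was made into libraries with the Illumina TruSeq RNA kit and sequenced on a HiSeq instrument. To make the table, the authors aligned to mm9 transcript sequences (BWA 0.7.5a, by the submitters' processing notes) and deposited whole-number read counts for 27052 RefSeq records, with no scaling or filter. The rules for strand and for reads that match several records are not given in the sources used here. Total counts ran from 8983203 to 52457455, so levels are least precise in Ctrl 33. Symbols came from a RefSeq table for GRCm38.p6, used for names and promoters only, and matched 26317 records. For each symbol the record with the highest mean count was used.

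The 16235 records that reached 5 reads in 4 or more of the 8 libraries were fitted together with edgeR 4.0.16 (R 4.3.3) by its quasi-likelihood test, with DESeq size factors as scaling and Benjamini-Hochberg adjustment over all records. This filter and scaling are those of the paper. Fits were genotype alone, genotype with clone series as a term, and 4 groups of genotype and series for the values within each series and their interaction. P-values take the clones as independent. A level is the normalised count, SDs are over clones, and log2 fold changes are TKO over Ctrl or forties over thirties. An exact two-sided permutation test of single values ran over 70 arrangements. Fits were tested on simulated data. The members and lists were chosen with earlier results of these data known. Values per clone are given for members called in any fit, with groups that do not overlap and a mean of at least 20, or with a mean of at least 50 and a 4-fold range, and for the pairs H19-Igf2, Peg10-Sgce, Igf2r-Airn and Snrpn-Ndn. Alternatives were TMM scaling, other filters, DESeq2 1.42.0, limma-voom (limma 3.58.1), edgeR's exact test, counts summed per symbol, other records, thinned libraries, a 2.5-fold threshold and leaving out each clone. The fibroblast level as a term was added after seeing the data.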

Additional observations from a re-analysis of the deposited data

Results flagged for a closer look

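In 60 groups of 4 clones (30 genes in each genotype) 6 had 1 clone far from the other 3 by Dixon's ratio, where chance flags about 1 in 20, or 3. *Peg12* had 632.7 normalised counts in TKO 48 and 295 to 307 in the other TKO clones. *Nap1l5* had 35.05 in TKO 48 and 18.1 to 19.3 in the others. *Commd1* had 1473 in TKO 47 against 1177 to 1218, and *Gnas* had 7.012 in TKO 47 against 9.05 to 9.40, the last on few reads. In Ctrl clones *Zrsr1*, a retrocopy encoding a splicing factor, had 1846 in Ctrl 34 and 1124 to 1144 in the others, and *Asb4* had 108.0 in Ctrl 41 and 5.76 to 21.7 in the others. With all 8 clones and the filter on low counts, edgeR called no member's interaction of genotype and series (7 at an unadjusted p under 0.05), while DESeq2 called 6.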

How the results depend on the processing

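No paired analysis was possible because no clone number occurs in both genotypes. In TKO against Ctrl the count of 0 members became 1 (*Impact*) with at least 10 reads in every library, DESeq2, limma-voom and edgeR's exact test, and ran from 0 to 1 when 1 clone was left out. With series as a term the count of 2 became 5 by DESeq2, 1 with the fibroblast level as a term and 0 at 2.5-fold, and ran from 0 to 4 when 1 clone was left out. Between the series the count of 5 became 8 by DESeq2 and ran from 2 to 10, the highest without Ctrl 34. In the thirties the count of 7 ran from 0 to 10 and in the forties the count of 1 from 0 to 2 when 1 clone was left out. The interaction count of 0 became 6 with no filter and 6 by DESeq2, and ran from 0 to 7, the highest without Ctrl 33. In the forties the log2 fold change turned with 1 clone left out for *Igf2* (from -1.069 to 0.21, positive without TKO 47), *Slc38a4* (from -0.0872 to 0.0406, positive without TKO 47) and *Copg2* (from -0.2201 to 0.0702, positive without TKO 48), none of them called. The cause of these changes was not tested. No called change of a named member turned its direction in any alternative run. Depth limits *Nnat*, *Snrpn*, *Airn* and *Gnas*, and Ctrl 33 is the shallowest library. Leaving out a clone of a 2 by 2 comparison assumes that the lone clone varies like the others.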
